A study of Homo sapiens with 10 samples.

Results

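The numbered ZNF genes encode zinc finger proteins, most of them DNA-binding regulators of transcription, and their RNA was followed in U937 cells after Fc gamma receptor cross-linking. Members were genes whose single platform symbol was ZNF and a number. They had to read above a fixed signal floor, the percentile 25 of all values, on at least 2 arrays, and each gene was represented by its brightest probe set. The array named 94 such genes through 96 probe sets, and 83 passed, out of 6814 genes tested. The 11 that did not pass were ZNF80, ZNF91, ZNF135, ZNF141, ZNF157, ZNF215, ZNF221, ZNF225, ZNF287, ZNF324 and ZNF345, whose highest signal lay between 15.8 and 79.7. The name covers more than transcription factors: ZNF185 is a LIM domain protein, ZNF106 and ZNF638 bind RNA, and ZNF137P is annotated as a pseudogene.

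A classical zinc finger of this kind holds a zinc ion between paired cysteines and histidines, and a row of fingers reads a stretch of DNA. Many human members also carry a KRAB domain, which recruits the scaffold TRIM28 and, with it, histone methyltransferases and heterochromatin proteins that silence transposable elements and genes. Others carry a SCAN domain, through which they pair, or act as activators and partners of chromatin loops.

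U937 is a human monocytic cell line, and the cells of all 5 groups had been differentiated with interferon gamma. The groups were cells cross-linked through CD64, the high-affinity IgG receptor, for 6 h or 2 h, cells cross-linked through CD32, the low-affinity IgG receptor, for 6 h or 2 h, and control cells with no cross-linking listed and no time given. Each group had 2 arrays, and the labels call the second array of a cross-linked group a duplicate without naming separate cultures, so p-values cover only the spread among these arrays, which may be technical. The source name of 1 CD32 2 h array carries a different receptor number, and its title and description were followed.

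The values are linear signal intensities of a 1-colour oligonucleotide array. Changes are log2 differences ± SE from limma, values under the floor were set to it, and a change was called at a two-sided adjusted p under 0.05 over all 7708 probe sets tested. The array medians lay between 101 and 153, and the number of arrays limits the precision. Of 12 monocytic markers on the array 10 read above the floor on 10 of 10 arrays, and MPO lay under it on most. CD14 lay under the floor in control, at 9.4 and 4.1, and read 128.6 and 71.9 in CD64 6 h. The summed signal of the 12 averaged 19576 in CD64 6 h, 21124 in CD64 2 h, 29372 in CD32 6 h, 24035 in CD32 2 h and 28615 in control cells. CTSG and ITGB2 were the brightest in this sum, and not every marker followed it. The granule protein genes CTSG, ELANE, AZU1 and PRTN3, and also ITGB2, read lower in CD64 6 h than in control. ITGAM did not, with 505.7 and 521.1 in CD64 6 h against 481.5 and 480.6 in control. CSF1R had 204.1 and 184.8 in CD64 6 h and 81.5 and 78.7 in CD64 2 h, against 115.9 and 113.4 in control. The lists for T cells, B cells, natural killer cells, the erythroid and platelet lineage, and epithelium with fibroblasts each had 1 marker above the floor on all arrays, with summed signals of 133 to 338, 133 to 440, 1507 to 2411, 258 to 593 and 199 to 438. Most of the natural killer sum was NKG7, at 1408.7 to 2299.6. In a line, a smaller share of expressing cells and less RNA per cell cannot be told apart. The 9 probe sets for transcripts added before hybridisation also went with the group: their mean log2 signal was 9.03 in CD64 6 h, 10.55 in CD64 2 h, 12.11 in CD32 6 h, 11.03 in CD32 2 h and 10.38 in control. Actin signal at its 3' end over that at its 5' end averaged 1.12, 1.81, 1.99 and 1.56 in those cross-linked groups and 1.30 in control. The part of these measures in the results below was not tested.

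Most ZNF genes were not called. The F-test of limma, which takes the 4 cross-linked groups against control together, called 19 of 83 members, or 22.9%, beside 34.5% of all probe sets tested. Members were dimmer, with a median signal of 121 against 176 for all probe sets. Their median SD within a group was also larger, at 0.185 against 0.156 on the log2 scale. The part of signal and spread in the called shares was not tested. Against control, 8 members rose and 4 fell in CD64 6 h cells, where 20.6% of all probe sets were called, 10.7% upward and 9.94% downward. In CD64 2 h cells 6 rose and 2 fell, beside a background of 15.9%, with 7.64% up and 8.24% down. In CD32 6 h cells 6 rose and 8 fell, beside 20%, with 9.63% up and 10.3% down. In CD32 2 h cells 5 rose and 4 fell, beside 15.5%, with 8.86% up and 6.6% down. The called share of the members was 14.5%, 9.64%, 16.9% and 10.8% in that order. The median log2 change of the members was -0.04, -0.09, -0.17 and -0.04, and that of all probe sets -0.04, -0.13, -0.08 and -0.03. These 4 comparisons share the control arrays. The median of all probe sets in CD64 2 h, -0.13 as deposited, was 0 after quantile normalization, and that of the members, -0.09, was 0.08. The split of rises and falls moved with the scaling: cyclic loess gave 6 and 1 in CD64 2 h, 8 and 7 in CD32 6 h and 6 and 3 in CD32 2 h, and quantile normalization 6 and 1 in CD64 2 h.

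**Figure D1:**
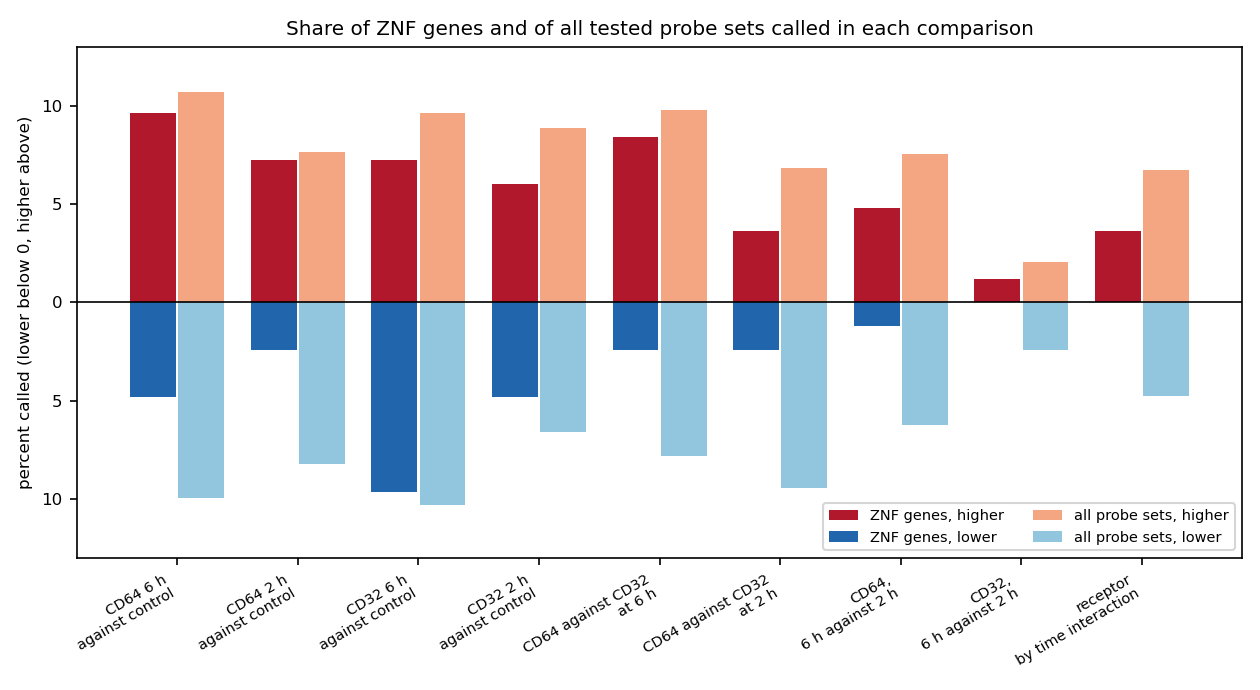
Share of probe sets called (percent, limma adjusted p under 0.05) in each comparison, for the 83 ZNF genes and for all 7708 probe sets tested. The ZNF share lies under the background in each comparison, for example 14.5% beside 20.6% for CD64 6 h against control.

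A single member rose in 4 of 4 comparisons with control, ZNF706, and a single member fell in 4 of 4, ZNF12. A further 3 genes, ZNF76, ZNF107 and ZNF140, were called in 3 of 4. In all, 25 members were called in at least 1 of 9 comparisons and 58 in none. How many of all probe sets were called as often was not computed. These counts therefore do not show whether members were called repeatedly more or less often than other genes. Calls at 2 arrays a group are fragile: of 66 called values of members, 56 missed the threshold without some single array, and 0 changed sign.

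**Figure D2:**
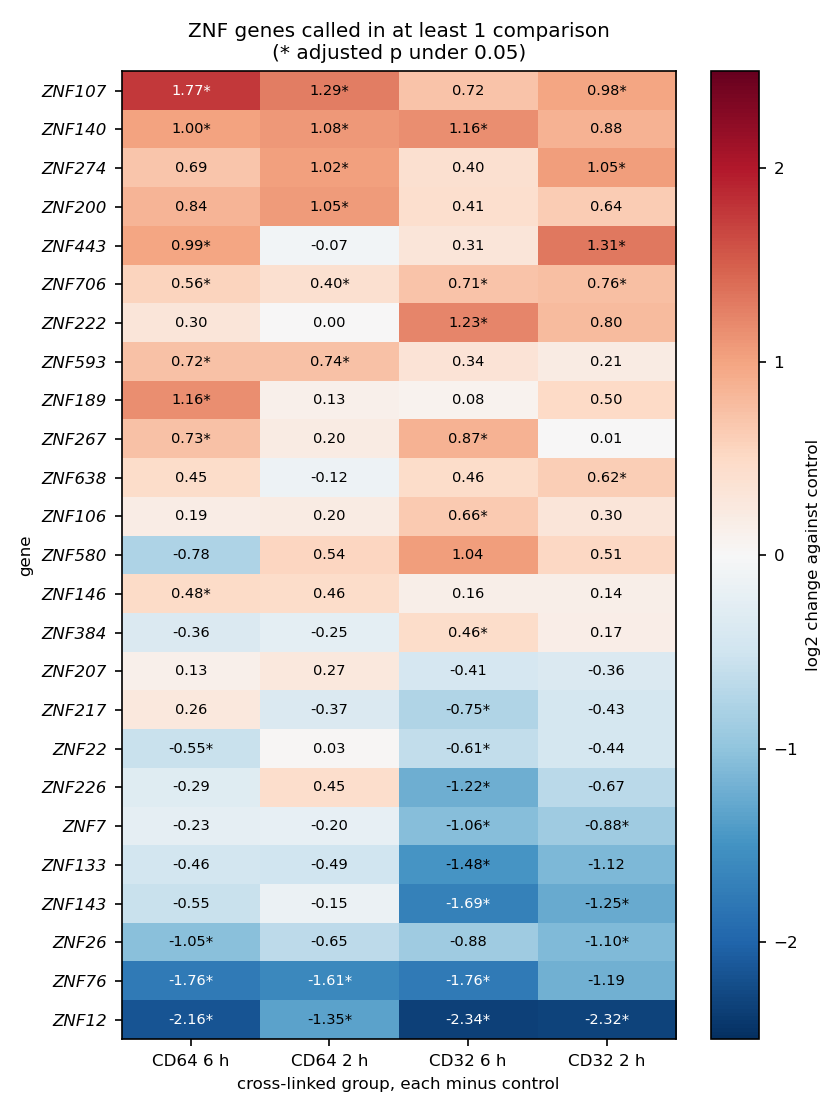
Log2 change against control for the 25 ZNF genes called in at least 1 of 9 comparisons, with columns for the 4 cross-linked groups and asterisks at an adjusted p under 0.05; values under the floor were set to it, so those of ZNF222 and ZNF76 depend on it. ZNF107 is at the upper end, at 1.77 in CD64 6 h, and ZNF12 at the lower end, at -2.34 in CD32 6 h.

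Among the KRAB genes the clearest change was the fall of ZNF12, a KRAB protein that represses reporter genes. ZNF12 had signals of 59.3 and 51.5 in CD64 6 h, 109.4 and 85.9 in CD64 2 h, 52.2 and 45.3 in CD32 6 h, 61.0 and 40.0 in CD32 2 h, and 246.1 and 246.9 in control. All 8 cross-linked arrays lay below both controls. ZNF12 fell by 2.16 ± 0.37 in CD64 6 h (4.46-fold lower, limma adjusted p = 0.00178) and by 1.35 ± 0.37 in CD64 2 h (2.54-fold, adjusted p = 0.0313). It fell by 2.34 ± 0.37 in CD32 6 h (5.07-fold, adjusted p = 0.00116) and by 2.32 ± 0.37 in CD32 2 h (4.99-fold, adjusted p = 0.00179). The CD64 2 h call was lost without 5 of 10 single arrays (adjusted p up to 0.162), and the other calls of ZNF12 held without any single array. The receptors were not called different for ZNF12, with a CD64 minus CD32 difference of 0.18 ± 0.37 at 6 h (adjusted p = 0.818) and 0.97 ± 0.37 at 2 h (adjusted p = 0.108).

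The promoter windows below are the RefSeq sequences of GRCh38.p14 from 250 bases before to 50 after the gene's start, shown for 7 called genes chosen after their values were seen, so that windows of genes that fell, rose or differed in timing can be read side by side. Capitals mark the core of ETS family sites, CCGGAAG, on either strand. ZNF12 is at chr7:6706898-6707197 on the minus strand, ZNF143 at chr11:9460762-9461061 on the plus strand, ZNF107 at chr7:64665883-64666182 on the plus strand and ZNF267 at chr16:31873557-31873856 on the plus strand. ZNF226 is at chr19:44164850-44165149 on the plus strand, ZNF443 at chr19:12440972-12441271 on the minus strand and ZNF189 at chr9:101398601-101398900 on the plus strand. The windows of ZNF443 and ZNF189 hold no ETS core and have no capitals.
ZNF12: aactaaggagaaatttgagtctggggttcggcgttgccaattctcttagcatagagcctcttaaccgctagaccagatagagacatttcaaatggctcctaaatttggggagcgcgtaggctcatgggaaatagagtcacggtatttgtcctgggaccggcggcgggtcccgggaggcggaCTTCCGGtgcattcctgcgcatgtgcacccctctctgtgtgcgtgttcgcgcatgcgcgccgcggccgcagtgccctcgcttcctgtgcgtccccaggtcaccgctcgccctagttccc
ZNF143: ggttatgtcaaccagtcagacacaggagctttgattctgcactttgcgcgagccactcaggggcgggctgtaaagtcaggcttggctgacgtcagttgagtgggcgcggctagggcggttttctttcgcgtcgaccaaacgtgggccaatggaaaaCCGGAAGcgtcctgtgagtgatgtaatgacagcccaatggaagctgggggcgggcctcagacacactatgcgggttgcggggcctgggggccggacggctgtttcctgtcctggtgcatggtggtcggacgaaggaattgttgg
ZNF107: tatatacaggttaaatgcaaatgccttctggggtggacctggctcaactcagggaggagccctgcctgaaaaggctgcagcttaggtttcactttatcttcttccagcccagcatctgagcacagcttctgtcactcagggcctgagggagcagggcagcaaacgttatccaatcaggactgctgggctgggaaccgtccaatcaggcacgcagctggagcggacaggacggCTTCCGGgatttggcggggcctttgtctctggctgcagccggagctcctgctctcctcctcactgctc
ZNF267: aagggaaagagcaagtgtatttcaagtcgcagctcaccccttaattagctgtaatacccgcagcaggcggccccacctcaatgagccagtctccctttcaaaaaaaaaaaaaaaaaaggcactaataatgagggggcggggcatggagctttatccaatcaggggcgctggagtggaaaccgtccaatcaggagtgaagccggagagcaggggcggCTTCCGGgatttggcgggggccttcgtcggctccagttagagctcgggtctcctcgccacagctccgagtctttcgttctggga
ZNF226: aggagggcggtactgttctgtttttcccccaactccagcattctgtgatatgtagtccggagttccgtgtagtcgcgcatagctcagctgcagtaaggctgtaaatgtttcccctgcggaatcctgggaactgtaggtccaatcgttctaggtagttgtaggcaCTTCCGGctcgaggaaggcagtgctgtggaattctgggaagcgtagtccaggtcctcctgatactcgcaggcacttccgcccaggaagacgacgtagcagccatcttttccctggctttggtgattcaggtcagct
ZNF443: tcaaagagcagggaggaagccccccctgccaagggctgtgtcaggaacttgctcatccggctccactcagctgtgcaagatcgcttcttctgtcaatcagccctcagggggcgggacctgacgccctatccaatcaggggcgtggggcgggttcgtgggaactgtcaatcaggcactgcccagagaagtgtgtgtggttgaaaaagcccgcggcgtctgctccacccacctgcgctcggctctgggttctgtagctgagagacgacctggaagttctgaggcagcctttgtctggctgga
ZNF189: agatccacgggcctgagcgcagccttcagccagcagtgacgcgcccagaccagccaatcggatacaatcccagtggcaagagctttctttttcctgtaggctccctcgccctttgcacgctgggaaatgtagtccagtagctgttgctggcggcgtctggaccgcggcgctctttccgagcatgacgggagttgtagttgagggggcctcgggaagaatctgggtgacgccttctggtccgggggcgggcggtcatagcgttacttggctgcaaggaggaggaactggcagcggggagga

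ZNF26, another KRAB gene, also read lower. Its signals were 96.0 and 146.9 in CD64 6 h, 173.3 and 141.8 in CD64 2 h, 130.0 and 136.0 in CD32 6 h, 111.5 and 116.8 in CD32 2 h, and 253.1 and 238.0 in control. All 8 cross-linked arrays lay below the controls. ZNF26 fell by 1.05 ± 0.33 in CD64 6 h and by 1.10 ± 0.33 in CD32 2 h (limma adjusted p = 0.0472 for both), and was not called in CD64 2 h (-0.65) or CD32 6 h (-0.88). Both calls are marginal: they were lost without 10 and 9 of the 10 single arrays, at adjusted p up to 0.275 and 0.162.

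Other KRAB genes fell after CD32 cross-linking. ZNF226 had signals of 175.6 and 208.1 in CD64 6 h, 306.3 and 332.5 in CD64 2 h, 109.0 and 92.8 in CD32 6 h, 132.2 and 163.0 in CD32 2 h, and 251.0 and 218.7 in control. The 4 CD32 arrays were the lowest and the CD64 2 h arrays the highest. ZNF226 fell by 1.22 ± 0.28 in CD32 6 h (limma adjusted p = 0.0111, lost without control array 1 or CD32 6 h array 2, up to 0.0543), and its CD64 minus CD32 difference was 1.12 ± 0.28 at 2 h (adjusted p = 0.0205) and 0.93 ± 0.28 at 6 h (adjusted p = 0.0453). These receptor differences were lost without 4 and 8 of 10 single arrays, at adjusted p up to 0.117 and 0.214.

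ZNF7 had signals of 355.4 and 289.4 in CD64 6 h, 393.9 and 271.9 in CD64 2 h, 176.8 and 184.0 in CD32 6 h, 173.0 and 241.7 in CD32 2 h, and 383.6 and 369.1 in control. Each CD32 array lay below each CD64 and control array. ZNF7 fell by 1.06 ± 0.26 in CD32 6 h (limma adjusted p = 0.0147) and by 0.88 ± 0.26 in CD32 2 h (adjusted p = 0.0433), and the CD64 minus CD32 difference at 6 h was 0.83 ± 0.26 (adjusted p = 0.0497). These calls were lost without 4, 8 and 9 of 10 single arrays, at adjusted p up to 0.0816, 0.243 and 0.273.

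ZNF133, a KRAB repressor, was read by 2 probe sets. The brighter had 166.7 and 285.9 in CD64 6 h, 223.3 and 205.7 in CD64 2 h, 88.9 and 130.8 in CD32 6 h, 94.1 and 205.2 in CD32 2 h, and 272.5 and 332.9 in control. The CD32 6 h arrays lay clear of the controls, where it fell by 1.48 ± 0.42 (limma adjusted p = 0.0295, lost without 6 of 10 single arrays, up to 0.197). The other probe set was lower in the same group but was not called (-0.93, adjusted p = 0.0958). It was lowest against control in CD64 2 h, at -1.12 (limma adjusted p = 0.0568, not called), where the brighter one was at -0.49. Its changes in CD32 2 h and CD64 6 h were -0.80 and -0.68. The 2 probe sets therefore did not share a difference between the receptors.

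Of the KRAB genes that rose, ZNF140, a transcriptional repressor, did so in 3 groups. Its signals were 417.0 and 266.2 in CD64 6 h, 397.0 and 309.4 in CD64 2 h, 363.3 and 380.0 in CD32 6 h, 276.6 and 336.7 in CD32 2 h, and 198.4 and 139.4 in control. All 8 cross-linked arrays lay above the controls. ZNF140 rose 2.0-fold in CD64 6 h (SE 0.28 on the log2 scale, limma adjusted p = 0.0244), by 1.08 ± 0.28 in CD64 2 h (adjusted p = 0.0228) and by 1.16 ± 0.28 in CD32 6 h (adjusted p = 0.0125), and read 0.88 higher in CD32 2 h (adjusted p = 0.056). The calls were lost without control array 2 and without 2 to 3 single arrays in all, at adjusted p up to 0.224.

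ZNF274, which carries KRAB and SCAN domains and binds the 3' ends of other zinc finger genes, rose at 2 h. Its signals were 644.8 and 775.8 in CD64 6 h, 778.3 and 1011.1 in CD64 2 h, 432.7 and 771.2 in CD32 6 h, 953.4 and 862.5 in CD32 2 h, and 444.2 and 431.7 in control. The 2 h arrays of both receptors lay above the controls, and 1 CD32 6 h array lay between them. ZNF274 rose by 1.02 ± 0.23 in CD64 2 h (limma adjusted p = 0.0139) and by 1.05 ± 0.23 in CD32 2 h (adjusted p = 0.0116). At 6 h it was not called, at 0.69 in CD64 and 0.40 in CD32, and the time differences were not called either. The 2 h calls were lost without 3 and 4 of 10 single arrays, at adjusted p up to 0.127 and 0.123.

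ZNF267 rose at 6 h through either receptor. Its signals were 1133.4 and 914.1 in CD64 6 h, 688.9 and 720.1 in CD64 2 h, 1155.5 and 1091.8 in CD32 6 h, 720.8 and 530.1 in CD32 2 h, and 551.1 and 681.6 in control. The 4 arrays at 6 h lay above the other 6. ZNF267 rose by 0.73 ± 0.17 in CD64 6 h (limma adjusted p = 0.0101) and by 0.87 ± 0.17 in CD32 6 h (adjusted p = 0.00401). The 6 h minus 2 h difference was 0.86 ± 0.17 with CD32 (adjusted p = 0.0186), the single member called there (1.2% of members beside 4.46% of all probe sets, 2.04% up and 2.43% down; 1 member up and 3 down at an unadjusted p under 0.05), and 0.53 ± 0.17 with CD64 (adjusted p = 0.0631). Without control array 1, or 1 array of the group itself, the changes against control missed the threshold, at adjusted p up to 0.117 and 0.0555, and the CD32 time difference was lost without 4 of 10 single arrays (up to 0.169).

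ZNF443, a KRAB gene, had opposite timing with the receptors. Its signals were 293.2 and 291.8 in CD64 6 h, 129.8 and 150.3 in CD64 2 h, 197.1 and 168.4 in CD32 6 h, 351.6 and 379.3 in CD32 2 h, and 177.0 and 122.1 in control. The CD64 6 h and CD32 2 h pairs were the highest and did not overlap with any other group. ZNF443 rose by 0.99 ± 0.27 in CD64 6 h (limma adjusted p = 0.0254) and by 1.31 ± 0.27 in CD32 2 h (adjusted p = 0.00814), lost without 3 and 2 of 10 single arrays (up to 0.122 and 0.0712). The CD64 minus CD32 difference at 2 h was -1.39 ± 0.27 (adjusted p = 0.00606, and 0.061 without CD32 2 h array 2). The 6 h minus 2 h difference was 1.07 ± 0.27 with CD64 (adjusted p = 0.0255, lost without 6 of 10, up to 0.133) and not called with CD32 (adjusted p = 0.0671). The interaction of receptor and time, the CD64 time difference minus that of CD32, was 2.07 ± 0.39 (adjusted p = 0.00684), and this call held without any single array (adjusted p up to 0.0438).

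ZNF189, a KRAB gene, was high in 1 group. Its signals were 369.2 and 350.5 in CD64 6 h, 187.3 and 167.2 in CD64 2 h, 168.2 and 174.2 in CD32 6 h, 238.4 and 219.0 in CD32 2 h, and 176.7 and 147.4 in control. The CD64 6 h arrays lay above the other 8. ZNF189 rose by 1.16 ± 0.25 there (limma adjusted p = 0.0069, and 0.0592 without CD64 6 h array 1). The CD64 minus CD32 difference at 6 h was 1.07 ± 0.25 (adjusted p = 0.0133, lost without 3 of 10 single arrays, up to 0.0927). The CD64 6 h minus 2 h difference was 1.02 ± 0.25 (adjusted p = 0.0202, lost without 4 of 10, up to 0.127), and the interaction was 1.44 ± 0.35 (adjusted p = 0.0239, lost without 7 of 10 single arrays, up to 0.0921).

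ZNF222, a KRAB gene, had 56.5 and 11.0 in CD64 6 h, 5.5 and 31.8 in CD64 2 h, 98.1 and 78.9 in CD32 6 h, 81.0 and 52.6 in CD32 2 h, and 8.5 and 19.5 in control. Controls lay under the floor, so ZNF222 was at least 2.35-fold higher in CD32 6 h (limma adjusted p = 0.0225, lost without 3 of 10 single arrays, up to 0.109).

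**Figure D3:**
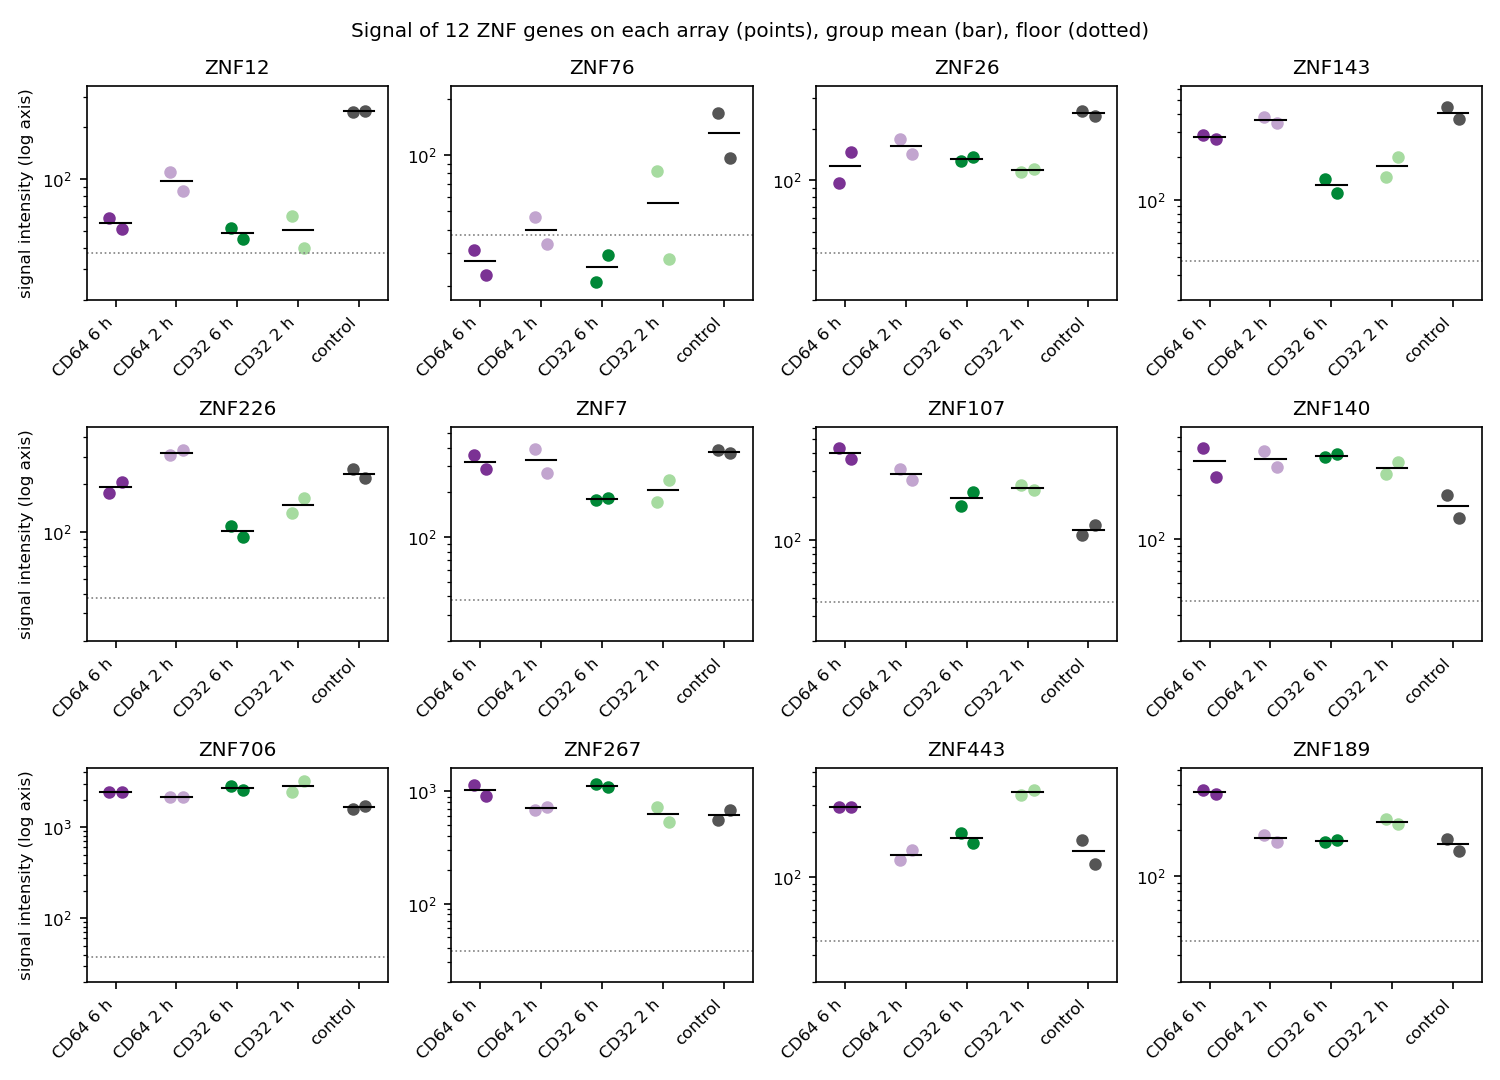
Signal intensity on a log axis for 12 ZNF genes on each of the 10 arrays (points) in 5 groups, with the group mean as a bar and the floor dotted. ZNF12 is near 246 in both controls and at 109.4 or lower elsewhere.

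The activators and chromatin partners moved in both directions after CD32 cross-linking. The F-test called 5 of 8 such members (62.5%, beside 34.5% of all probe sets). Of the 8 members 3 fell and 1 rose in CD32 6 h cells, where 9.63% of all probe sets rose and 10.3% fell. The median log2 change of the 8 there was -0.81, beside -0.08 over all probe sets. In CD32 2 h 1 fell and 1 rose, beside 8.86% up and 6.6% down over all probe sets. In CD64 6 h 1 fell and 0 rose, beside 10.7% up and 9.94% down. In CD64 2 h 1 fell and 0 rose, beside 7.64% up and 8.24% down. ZNF143 is a general activator at promoters and a partner of chromatin loops. Its signals were 286.3 and 265.8 in CD64 6 h, 381.3 and 346.7 in CD64 2 h, 140.8 and 112.0 in CD32 6 h, 144.7 and 198.4 in CD32 2 h, and 447.3 and 365.5 in control. The 4 CD32 arrays lay below all 6 others. ZNF143 fell by 1.69 ± 0.26 in CD32 6 h (3.22-fold lower, limma adjusted p = 0.000917, at most 0.014 without a single array). It fell by 1.25 ± 0.26 in CD32 2 h (adjusted p = 0.00707, lost without control array 1 or CD32 2 h array 1, up to 0.0659), and was not called with CD64. The CD64 minus CD32 difference was 1.14 ± 0.26 at 6 h (adjusted p = 0.0114) and 1.10 ± 0.26 at 2 h (adjusted p = 0.0139), each lost without 3 of 10 single arrays (up to 0.0844 and 0.0943).

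ZNF76, the close relative of ZNF143, had 31.2 and 22.9 in CD64 6 h, 46.4 and 33.5 in CD64 2 h, 21.0 and 29.4 in CD32 6 h, 82.7 and 27.7 in CD32 2 h, and 167.6 and 96.9 in control. All cross-linked arrays lay below the controls, and most lay under the floor. It was at least 3.40-fold lower in CD64 6 h (limma adjusted p = 0.0101) and in CD32 6 h (adjusted p = 0.0108). In CD64 2 h, with 1 array under the floor, it fell by 1.61 ± 0.41 (adjusted p = 0.0218). Each call was lost without control array 1, and without 3 of 10 single arrays in all, at adjusted p up to 0.0777, 0.0842 and 0.137 in that order.

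ZNF217, an oncoprotein that joins CoREST and CtBP complexes, had 975.5 and 952.3 in CD64 6 h, 700.8 and 554.9 in CD64 2 h, 401.6 and 575.5 in CD32 6 h, 601.6 and 595.2 in CD32 2 h, and 817.7 and 795.2 in control. CD64 6 h was highest and CD32 6 h lowest on average. ZNF217 fell by 0.75 ± 0.17 in CD32 6 h (limma adjusted p = 0.0107, lost without 3 of 10 single arrays, up to 0.0858). CD64 exceeded CD32 at 6 h by 2.0-fold (SE 0.17 on the log2 scale, adjusted p = 0.00255, at most 0.0331 without a single array). The interaction was 0.94 ± 0.24 (adjusted p = 0.0302, lost without 8 of 10 single arrays, up to 0.117).

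ZNF384 ran the other way. It had 324.6 and 356.8 in CD64 6 h, 358.6 and 380.3 in CD64 2 h, 572.3 and 637.0 in CD32 6 h, 490.9 and 495.0 in CD32 2 h, and 447.2 and 429.3 in control. CD32 arrays lay above the controls and CD64 arrays below them. The CD64 minus CD32 difference at 6 h was -0.83 ± 0.15 (limma adjusted p = 0.00296, at most 0.034 without a single array). The rise of 0.46 ± 0.15 in CD32 6 h against control (adjusted p = 0.0471) was lost without any 1 of 10 arrays.

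ZNF638, a nuclear RNA-binding protein, had 787.4 and 957.0 in CD64 6 h, 593.9 and 578.2 in CD64 2 h, 880.8 and 869.7 in CD32 6 h, 1043.5 and 917.9 in CD32 2 h, and 553.5 and 730.1 in control. The CD64 2 h arrays lay within the control range, and the other 6 cross-linked arrays above it. ZNF638 rose by 0.62 ± 0.15 in CD32 2 h (limma adjusted p = 0.0185, lost without 3 of 10 single arrays, up to 0.15), and the CD64 minus CD32 difference at 2 h was -0.74 ± 0.15 (adjusted p = 0.00718, lost without 2 of 10, up to 0.0805). ZNF148, ZNF281 and ZNF335 were not called in any comparison, and their changes in CD32 6 h were -1.05, -0.87 and 0.23.

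Between the receptors, at 6 h 7 members were higher and 2 lower in CD64 than in CD32 cells, 10.8% of members beside a background of 17.6%, with 9.81% up and 7.8% down; quantile normalization gave 3 higher and 2 lower, and cyclic loess 5 and 3. At 2 h 3 were higher and 2 lower, 6.02% beside 16.3%, with 6.86% up and 9.43% down. The members not yet named are ZNF207, a spindle assembly protein, and ZNF580. ZNF207 had 3075.8 and 2234.2 in CD64 6 h, 2745.7 and 3051.0 in CD64 2 h, 1872.5 and 1737.4 in CD32 6 h, 1984.7 and 1767.0 in CD32 2 h, and 2142.6 and 2696.4 in control. The CD64 arrays lay above all CD32 arrays, with differences of 0.54 ± 0.15 at 6 h (limma adjusted p = 0.0346) and 0.63 ± 0.15 at 2 h (adjusted p = 0.0181), lost without 7 and 4 of 10 single arrays (up to 0.29 and 0.176). ZNF580 had 68.1 and 55.5 in CD64 6 h, against 263.2 and 179.3 in CD32 6 h, a difference of -1.82 ± 0.49 (adjusted p = 0.0268, lost without 6 of 10, up to 0.186). Its control arrays were far apart, at 63.4 and 175.8.

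**Figure D4:**
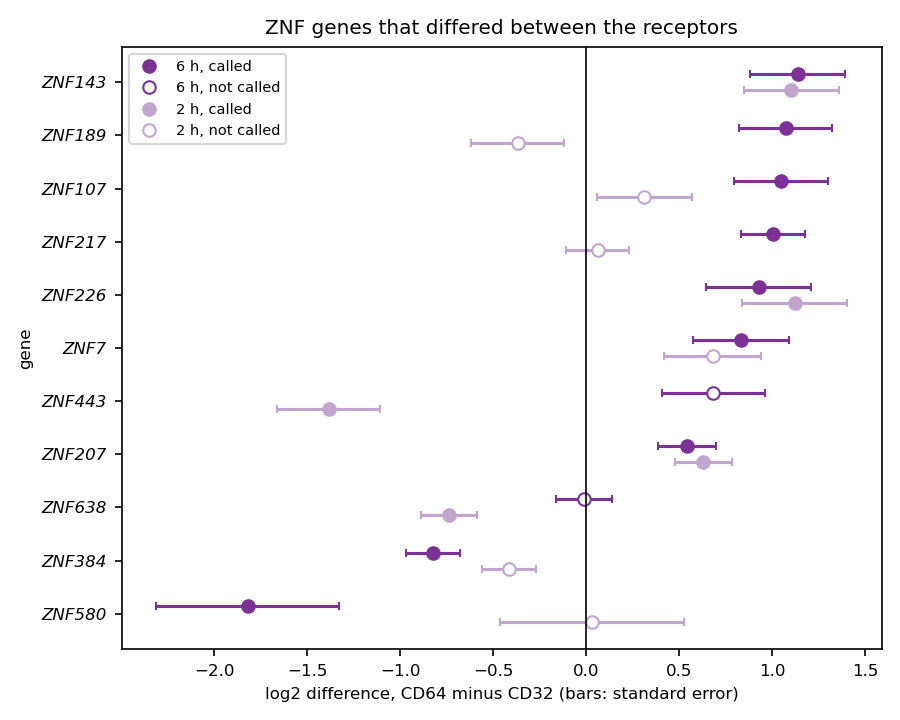
CD64 minus CD32 log2 difference at 6 h and 2 h for the 11 ZNF genes called in either, with SE from limma. ZNF143 lies at 1.14 and 1.10, and ZNF443 at 0.68 and -1.39.

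Among members outside the KRAB and activator groups, ZNF107, a protein with many fingers, rose in 3 of 4 groups. Its signals were 436.1 and 368.1 in CD64 6 h, 314.5 and 263.3 in CD64 2 h, 173.6 and 217.0 in CD32 6 h, 241.5 and 222.6 in CD32 2 h, and 108.2 and 128.2 in control. All 8 cross-linked arrays lay above the controls, and the CD64 arrays above the CD32 arrays. ZNF107 rose by 1.77 ± 0.25 in CD64 6 h (3.40-fold, limma adjusted p = 0.00057, at most 0.0132 without a single array), by 1.29 ± 0.25 in CD64 2 h (adjusted p = 0.00618, and 0.0599 without CD64 2 h array 1) and by 0.98 ± 0.25 in CD32 2 h (adjusted p = 0.0252, lost without 3 of 10, up to 0.124). The CD64 minus CD32 difference at 6 h was 1.05 ± 0.25 (adjusted p = 0.016, lost without 3 of 10, up to 0.133). Zinc finger genes share sequence, and by their names 8 member probe sets, those of ZNF107, ZNF222 and ZNF638 among the called, may also match other transcripts. A further 26, ZNF12 among them, may be shared between related transcripts.

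ZNF706, a small zinc finger protein, had the highest mean signal of the members. It read 2412.2 and 2443.6 in CD64 6 h, 2169.2 and 2170.0 in CD64 2 h, 2813.6 and 2580.1 in CD32 6 h, 2441.7 and 3196.3 in CD32 2 h, and 1574.6 and 1727.7 in control. All 8 cross-linked arrays lay above the controls. ZNF706 rose by 0.56 ± 0.12 in CD64 6 h (limma adjusted p = 0.0068), by 0.40 ± 0.12 in CD64 2 h (adjusted p = 0.0476), by 0.71 ± 0.12 in CD32 6 h (adjusted p = 0.00181) and by 0.76 ± 0.12 in CD32 2 h (adjusted p = 0.0017). The CD64 calls were lost without 2 and 8 of 10 single arrays (up to 0.0691 and 0.243) and the CD32 calls held without any single array.

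ZNF593, whose yeast counterpart acts in making the large ribosomal subunit, had 525.4 and 575.9 in CD64 6 h, 599.4 and 517.4 in CD64 2 h, 410.5 and 430.5 in CD32 6 h, 337.3 and 440.2 in CD32 2 h, and 333.6 and 332.8 in control. The CD64 arrays lay above all others. It rose by 0.72 ± 0.17 in CD64 6 h (limma adjusted p = 0.011, and 0.0903 without CD64 6 h array 2) and by 0.74 ± 0.17 in CD64 2 h (adjusted p = 0.0134, lost without 3 of 10, up to 0.106). The difference from CD32 was not called, at 0.39 and 0.53.

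ZNF22 had 487.6 and 481.9 in CD64 6 h, 758.5 and 689.9 in CD64 2 h, 471.0 and 455.5 in CD32 6 h, 462.5 and 591.0 in CD32 2 h, and 684.5 and 734.0 in control. It was at control level in CD64 2 h and below it in the other groups. ZNF22 fell by 0.55 ± 0.14 in CD64 6 h (limma adjusted p = 0.0204) and by 0.61 ± 0.14 in CD32 6 h (adjusted p = 0.0121), lost without 4 and 3 of 10 single arrays (up to 0.101 and 0.0625). Between the times with CD64, 4 members were higher and 1 lower at 6 h, 6.02% beside 13.8%, with 7.56% up and 6.25% down over all probe sets. ZNF22 was the lower one, at -0.58 ± 0.14 (adjusted p = 0.0228, lost without 4 of 10 single arrays, up to 0.137). The higher ones were ZNF443, ZNF189, ZNF217 and ZNF638, at 1.07, 1.02, 0.63 and 0.57, and the last pair was lost without 7 and 8 of 10 single arrays (adjusted p up to 0.242 and 0.232). Under quantile normalization 0 were higher and 1 lower, and under cyclic loess 0 and 3. The interaction was called for 3 members, 3 higher and 0 lower (limma; 5 and 2 at an unadjusted p under 0.05), which is 3.61% beside 11.5%, with 6.72% up and 4.75% down.

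The remaining calls were small or marginal. ZNF106 rose by 0.66 ± 0.17 in CD32 6 h (limma adjusted p = 0.0177, lost without control array 1 or CD32 6 h array 2, up to 0.159). ZNF146, a protein made almost wholly of fingers, rose by 0.48 ± 0.15 in CD64 6 h (adjusted p = 0.0463, lost without 6 of 10, up to 0.215). ZNF200 rose by 1.05 ± 0.32 in CD64 2 h (adjusted p = 0.0477, lost without 9 of 10, up to 0.269).

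The KRAB class, 46 members taken from background knowledge, had 9 genes called by the F-test (19.6%), and the other 37 had 10 (27%), beside 34.5% over all probe sets. Of the KRAB genes 24 of 46 read above the floor on 10 of 10 arrays, against 31 of 37 of the others. Against control 4 KRAB genes rose and 2 fell in CD64 6 h, 2 and 1 in CD64 2 h, 3 and 4 in CD32 6 h, and 2 and 3 in CD32 2 h. In that order, 20.6%, 15.9%, 20% and 15.5% of all probe sets were called in either direction. By position, 4 of 34 members on chromosome 19 were called by the F-test (11.8%), against 15 of 49 elsewhere (30.6%), and 17 of 34 and 38 of 49 were above the floor on all arrays. In one row of that chromosome, from ZNF45 to ZNF180, all 18 protein-coding genes are numbered ZNF genes and 10 are members. Only ZNF222 and ZNF226 of these 10 were called, which is 20% by the F-test beside 34.5% of all probe sets. Of 6 SCAN members ZNF274 was called, which is 16.7% by the F-test beside the same 34.5%. ZNF24 and ZNF202 were not, with changes in CD64 6 h of -0.39 and 0.21. ZNF165, ZNF174 and ZNF232 were not called either, and each had a control array under the floor. ZNF174 had 73.1 and 58.1 in CD64 6 h against 10.9 and 7.6 in control, at least 1.74-fold higher (limma adjusted p = 0.0718). Of the members known to bind retroelements, ZNF43 and ZNF85 were not called, at -0.76 and -0.30 in CD64 6 h. ZNF330, with group means from 1156 in CD32 6 h to 1613 in CD64 2 h, was not called either. Nor was ZNF350, which read above the floor on only 2 of 10 arrays, so that its missing call tells little. ZNF330 and ZNF350 came from a stress and cell cycle list, of whose 5 members 3 were called by the F-test (60%, beside 34.5%).

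The scaffold TRIM28 was lower with CD64 and differed between the receptors. Of 25 tested genes in a list of corepressors 13 were called by the F-test (52%, beside 34.5% of all probe sets). The list also held the kinase ATM and the phosphatase PPM1D, which are not corepressors. Its genes were brighter, with a median signal of 455 against 176 for all probe sets. Of them 96% read above the floor on all arrays, against 63.9%. The part of signal in the called share was not tested. Against control 0 rose and 6 fell in CD64 6 h, 2 and 3 in CD64 2 h, 2 and 7 in CD32 6 h, and 3 and 4 in CD32 2 h, beside 20.6%, 15.9%, 20% and 15.5% of all probe sets called in either direction. The median changes of the list were -0.24, -0.13, -0.09 and -0.09, and those of all probe sets -0.04, -0.13, -0.08 and -0.03. TRIM28, the scaffold that KRAB domains bind, had 992 and 1083.1 in CD64 6 h, 1163.4 and 1076.4 in CD64 2 h, 2213.1 and 2313.5 in CD32 6 h, 1639.6 and 1822.2 in CD32 2 h, and 1783.8 and 1814.1 in control. Both CD64 groups lay below all other arrays and CD32 6 h above them. For TRIM28 the CD64 minus CD32 difference was -1.13 ± 0.10 at 6 h (limma adjusted p = 4.18e-05) and -0.63 ± 0.10 at 2 h (adjusted p = 0.00149). EHMT2, a histone H3 lysine methyltransferase, had 157.7 and 160 in CD64 6 h against 659.1 and 864.9 in control, and fell by 2.25 ± 0.21 (adjusted p = 4.1e-05). EHMT2 was also called lower in CD64 2 h, CD32 6 h and CD32 2 h, by 1.10, 1.05 and 0.72 (limma adjusted p = 0.00587, 0.00557 and 0.0447). Other listed genes went the other way. In CD64 2 h CBX3 rose by 0.86 ± 0.12 (limma adjusted p = 0.000943) and PPM1D by 1.38 ± 0.30 (adjusted p = 0.00985), and HDAC1 rose in both CD32 groups. PPM1D was also called higher in CD32 2 h, so the counts of rises at 2 h include a gene that is not a corepressor. SETDB1 was not called in any comparison. The calls of this list were not rerun under the alternatives or without single arrays. Among 14 tested genes of the ZBTB, ZSCAN, ZKSCAN and ZFP families 6 were called by the F-test (42.9%, beside the same 34.5%).

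The 58 members called in no comparison spanned log2 changes against control of -1.08 for ZNF83 to 1.12 for ZNF35. Of them 32 read above the floor on all 10 arrays. The median SE of a change against control was 0.32 for members and 0.29 for all probe sets.

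The promoter windows of 73 members matched RefSeq, in 97 windows. The ETS core, CCGGAAG or CTTCCGG, was in 36.1% of member windows, against 10.3% of 35116 windows of all genes. It was in windows of 11 of 20 genes called against control and of 23 of 53 not called. The NRF1 motif was in 14.4% of member windows against 5.78%, the GC box GGGCGG in 53.6% against 45%, and the CCAAT box in 42.3% against 34.6%. The cAMP response element TGACGTCA was in 5.15% of member windows against 1.85%, and in windows of 3 of 20 called genes and 2 of 53 not called. The interferon-stimulated response element was in 3.09% against 3.57%, the NF-kappaB-like motif in 29.9% against 25.6% and the AP-1 motif TGANTCA in 9.28% against 7.71%, each on both strands. The windows of ZNF107 and ZNF267 share the run CGGCTTCCGGGATTTGGCGGGG of 22 bases, which overlaps the ETS core and is in 6 of all windows, all 6 of numbered ZNF genes. A match is a description of letters and not of binding.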

How the data were processed

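RNA of 10 U937 samples was measured on 1-colour oligonucleotide arrays, 2 per group. The deposited values are linear signal intensity, 1 per probe set, and their software is not given in the sources used here. Per array, the 2% trimmed mean of the deposited values was 500.5 to 500.6, so the authors had scaled them and values were used as deposited. Symbols came from the platform annotation, and of 8793 probe sets 47 were controls.

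Values under 37.5 were set to it and log2 was taken. The 7708 probe sets above it on at least 2 arrays entered limma (version 3.58.1, R 4.3.3; lmFit, eBayes with trend, 5 residual degrees of freedom, prior 5.65), with 1 term per group. Tests were two-sided with Benjamini-Hochberg adjustment over all of them. The code was tested on simulated data. Named were all called members, the brightest members and those in role lists, some uncalled ones without their changes. The members and lists were chosen with earlier results of these data known, and the KRAB class and the chromosome 19 row were listed after the files were seen. Promoter windows are those of RefSeq GRCh38.p14. Alternatives were other floors and filters, quantile and cyclic loess normalization, no trend, a replicate block, only the groups compared, the mean over a gene's probe sets, and leaving out each array. Residuals of same-numbered arrays correlated at -0.14 to 0.28, with a median of 0.03, over 10 pairs of groups. With 2 arrays a group these values cannot decide whether replicate numbers pair the arrays.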

Additional observations from a re-analysis of the deposited data

Results flagged for a closer look

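The change from 2 h to 6 h differed between the receptors for 3 genes by the limma interaction term (the CD64 time difference minus that of CD32). ZNF443 had 2.07 (adjusted p = 0.00684), ZNF189 1.44 (adjusted p = 0.0239) and ZNF217 0.94 (adjusted p = 0.0302) on the log2 scale. The medians of all probe sets and of the members in this term were 0.16 and 0.14 as deposited, and -0.01 and -0.09 after quantile normalization. The control transcripts added before hybridisation, with a mean log2 signal of 9.03 in CD64 6 h, 10.55 in CD64 2 h, 12.11 in CD32 6 h and 11.03 in CD32 2 h, also moved in opposite directions with time, and their part in these values was not tested.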

How the results depend on the processing

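Of 66 called values of members 5 kept their call under all alternatives run: ZNF12 in CD64 6 h and CD32 6 h, ZNF107 in CD64 6 h, ZNF706 in CD32 6 h and the interaction of ZNF443. None reversed. Fitting only the groups compared, which leaves fewer arrays for the spread, lost 54 of the 66 calls, and counts became 6 in CD64 6 h, 0 in CD64 2 h, 2 in CD32 6 h and 1 in CD32 2 h against control, 1 between receptors at 6 h and 1 at 2 h, and 0 for either time difference. Without a filter the CD64 2 h count was 3, the CD64 time count 3, the CD32 time count 0 and the F-test count 12. Asking for 5 arrays above the floor gave 8 for the CD64 time difference and 2 for that of CD32. Quantile normalization gave 5 between receptors at 6 h, 9 at 2 h, 1 for the CD64 time difference and 1 for the interaction; cyclic loess gave 10 between receptors at 2 h, 3 for the CD64 time difference and 1 for the interaction. The cause of these moves was not tested.

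Leaving out single arrays gave 4 to 12 in CD64 6 h (fewest without CD64 6 h array 1), 1 to 7 in CD64 2 h (CD64 2 h array 1), 5 to 13 in CD32 6 h (control array 1) and 3 to 8 in CD32 2 h (control array 1 or CD32 2 h array 1). It gave 2 to 8 between receptors at 6 h (CD64 6 h array 1), 1 to 5 at 2 h (CD64 2 h array 2), 0 to 5 for the CD64 and 0 to 2 for the CD32 time difference, 1 to 3 for the interaction and 14 to 18 for the F-test. A lone array was assumed to vary like the other groups. With the replicate block the counts against control were 11 in CD64 6 h, 7 in CD64 2 h, 14 in CD32 6 h and 9 in CD32 2 h. The block lost 8 of the 66 calls, and whether the replicate numbers pair the arrays could not be decided.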
